A study of Mus musculus with 2 samples.

Results

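Interferon-stimulated genes (ISGs) were examined in hepatic stellate cell (HSC) preparations from CCl4-injured mouse livers with and without the elimination of hepatocytes that express p16 at a high level. The 46 ISGs were a list of gene symbols, drawn up with earlier results of these data known, and 45 of them had a row among the 31054 genes of the feature list. Mx2 had no row and was not analysed here. The data comprised 2 single-cell RNA-seq libraries, 1 per genotype, from male mice on a C57BL/6 background that had received CCl4 for 4 weeks, with tamoxifen and the diphtheria toxin given to both genotypes. The p16-LRTD mice carried p16-CreERT2 and the R26-CAG-LSL-RSR-tdTomato-2A-DTR allele, and the p16-Alb-LRTD mice carried Alb-DreERT2 as well. The toxin receptor of that allele needs both recombinases, Cre driven by p16 and Dre driven by the hepatocyte gene albumin, so that only p16-Alb-LRTD mice were built to lose p16-high hepatocytes, although the toxin itself was given to both. The study's discussion names leaky expression of the receptor as a possible limit of this allele in mice with Alb-DreERT2. Ages, and the number of mice in each library, were not given in the sources used here. Each difference below is therefore one between 2 libraries without replicates. No test between genotypes was possible, and all intervals are 95% intervals that cover counting error only.

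Type I interferons (IFN-alpha and IFN-beta) signal through IFNAR and a complex with STAT2 and IRF9 that binds the interferon-stimulated response element (ISRE), and they induce antiviral genes such as the Ifit, Oas and Mx families. Interferon gamma signals through IFNGR to the gamma-activated sequence (GAS), and it is the classical inducer of the guanylate-binding proteins (Gbp) and the immunity-related GTPases (Irgm, Igtp). The programmes overlap, since many GTPase genes also respond to type I interferons, and both are known to act on liver macrophages, endothelium and stellate cells.

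There were 193746596 UMIs (unique molecules counted) over 11149 barcodes in p16-LRTD and 162219167 UMIs over 8806 barcodes in p16-Alb-LRTD. After filtering, 9004 and 7416 cells remained. There were 95 barcode sequences that occurred in both libraries. Cells were sorted into classes by marker sums: 7852 and 6621 stellate-like cells (Lrat, Ecm1, Hgf, Reln), 430 and 283 endothelial-like cells (Kdr, Stab2, Ptprb), and 283 and 178 Kupffer-like cells (Clec4f, Cd5l, Vsig4, Csf1r; Kupffer cells are the resident macrophages of the liver). Markers that the sorting did not use followed the names. Dcn, a proteoglycan of mesenchymal cells, was at 18429.8 and 22186 CPM (counts per 1000000 UMIs of the class) in stellate-like cells, Pecam1 at 619 and 659.8 CPM in endothelial-like cells, and Adgre1, which encodes F4/80, at 1059.5 and 1189 CPM in Kupffer-like cells.

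ISGs were higher in p16-Alb-LRTD in all 3 classes. Of the 44 members with at least 5 CPM on average over both libraries in stellate-like cells, 30 were at least 1.5-fold higher in p16-Alb-LRTD and 1 at least 1.5-fold lower, while 3.03% of all 10179 genes at that level were as much higher and 3.05% as much lower. In endothelial-like cells 29 of 42 members were higher by that fold and 0 lower, beside 6.44% and 13.5% of 9858 genes. Among the 29, Zbp1 passed 5 CPM only through p16-Alb-LRTD, at 4.22 and 7.78 CPM. The endothelial-like counts depended on the cells used. Leaving out cells with a marker sum above 2 per 10000 UMIs for another class left 201 and 77 cells. Of 42 members 20 were then higher and 2 lower (Ifi27 and Tap1), beside 10.2% and 18.8% of genes. Below, "without cells that held markers of another class" means this filter. With the mean of per-cell CPM 24 were higher, beside 6.95%. In Kupffer-like cells 38 of 44 were higher and 1 lower, beside 5.21% and 6.83% of 9514 genes. As the list was drawn up with earlier results known, these counts describe its members and are not independent evidence. The median log2 ratio of p16-Alb-LRTD over p16-LRTD was 0.79, 0.70 and 1.04 for the members in the 3 classes, and -0.048, -0.10 and -0.057 for all genes. With these counts 42, 37 and 43 members had an interval wholly above 0. At this depth small ratios also have such intervals, as Psmb8 does in stellate-like cells at a log2 ratio of 0.12. The share of all genes with such an interval was not computed, so these counts have no background beside them. Members below 5 CPM were Mx1 in stellate-like cells, Oas2, Mx1 and Gbp6 in endothelial-like cells, and Gbp6 in Kupffer-like cells. In endothelial-like cells these had 6 and 5, 7 and 1, and 7 and 12 UMIs in p16-LRTD and p16-Alb-LRTD, and Gbp6 had 8 and 21 UMIs in Kupffer-like cells.

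Across classes, 42 members passed 5 CPM in each, and 38 of them were higher in p16-Alb-LRTD in all 3. Of all genes past 5 CPM, 39.3% were higher in stellate-like, 39.7% in endothelial-like and 42.4% in Kupffer-like cells. The share of all genes higher in all 3 classes was not computed. At least 1.5-fold higher in every class were 22 of the 42, beside 0.834% of the 8158 genes that passed in all 3 classes. These 22 were Rsad2, Ifi44, Irf7, Isg15, Ifit1, Ifit3, Oas1a, Oasl2, Stat2, Gbp3, Gbp7, Igtp, Irgm1, Iigp1, Ifi47, Parp14, Parp9, Rnf213, Trim30a, Cmpk2, Zbp1 and Herc6. They included type I and gamma-type genes alike. Zbp1 passed in endothelial-like cells only through p16-Alb-LRTD, at 4.22 and 7.78 CPM. Without cells that held markers of another class, 15 members were at least 1.5-fold higher in every class, beside 0.757% of genes. These were Rsad2, Irf7, Ifit1, Ifit3, Oasl2, Gbp3, Gbp7, Irgm1, Iigp1, Ifi47, Xaf1, Parp14, Rnf213, Cmpk2 and Herc6. Ifi27 was lower in all 3 classes, and Bst2, Psmb9 and Tap1 differed in direction between classes.

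**Figure D1:**
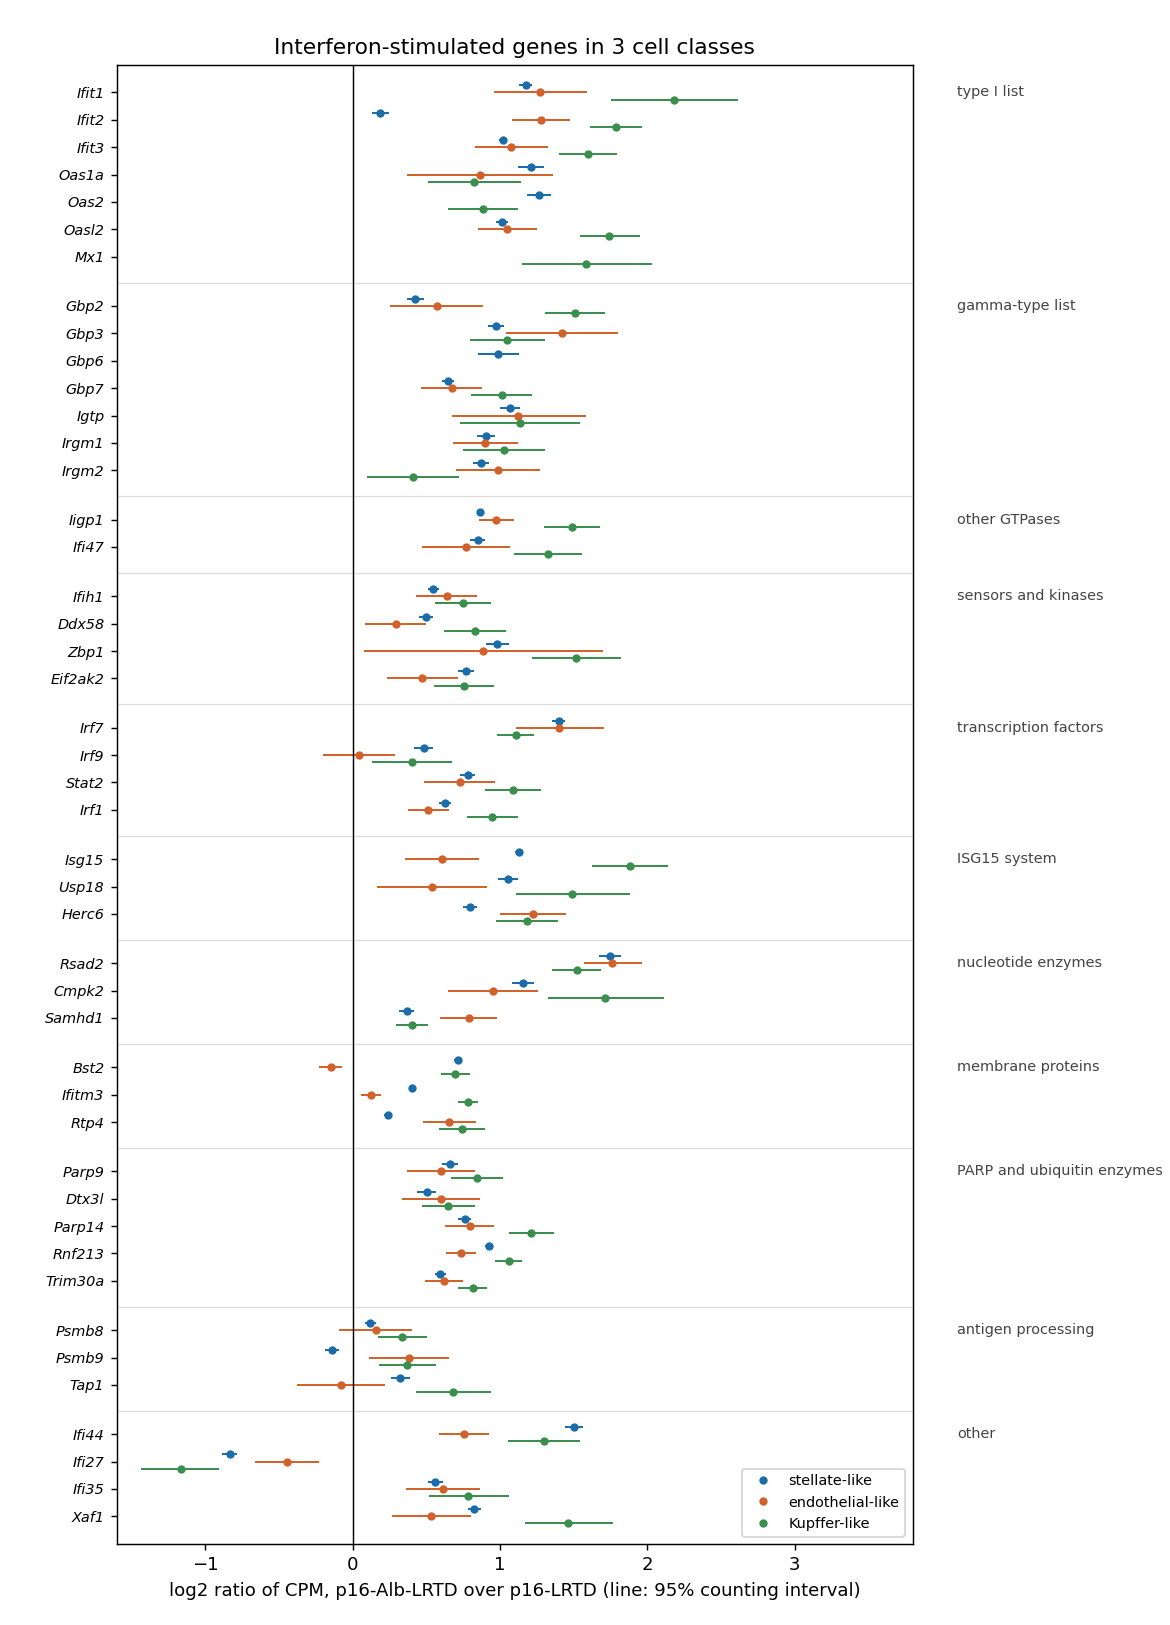
Log2 ratio of CPM, p16-Alb-LRTD over p16-LRTD, for each member (rows, grouped by role) in stellate-like (blue), endothelial-like (orange) and Kupffer-like (green) cells. Lines are 95% counting intervals, and a class in which a member stayed below 5 CPM is not drawn; most points lie right of 0, and Ifi27 lies left of 0 in all 3 classes.

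The promoters of these genes were searched for the motifs of both pathways, since the lists are named for pathways that act through these motifs. The RefSeq promoter table (GRCm38.p6, 250 bases before to 50 after each gene's start) held 35 of the 46 members, and Oas2, Mx1, Mx2, Usp18, Gbp6, Iigp1, Ifi27, Parp14, Parp9, Rtp4 and Zbp1 had no entry. An ISRE-type motif, GAAANNGAAA on either strand, was present in 18 of these 35 genes (51.4%), beside 3.99% of the 27025 genes of the table. A GAS-type motif, TTCNNNGAA, was present in 12 (34.3%), beside 9.55% of genes. Overlapping matches were counted separately, and a match describes the letters only. The members were chosen as interferon-stimulated genes, so these shares describe the list and not the libraries. The type I list held the ISRE-type motif in 3 of its 5 entries (Ifit1, Ifit3 and Oas1a) and the gamma-type list in all 6 of its entries (Gbp2, Gbp3, Gbp7, Igtp, Irgm1 and Irgm2). The stretches that hold the ISRE-type matches are given for both lists, and for Isg15 and Rsad2, which had high ratios in stellate-like cells. Ifit2 held a single GAS-type match at base -241 and is not shown. Ifi44, Irf7 and Cmpk2, whose stellate-like ratios were above that of Isg15, held neither motif in this window. Capitals mark ISRE-type and GAS-type matches, which run together where they overlap or adjoin.
Ifit1, chr19:34640775-34640823, plus strand: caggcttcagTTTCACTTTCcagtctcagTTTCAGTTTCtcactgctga
Ifit3, chr19:34583363-34583426, plus strand: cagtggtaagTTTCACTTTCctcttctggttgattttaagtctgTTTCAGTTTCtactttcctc
Oas1a, chr5:120907520-120907633, minus strand: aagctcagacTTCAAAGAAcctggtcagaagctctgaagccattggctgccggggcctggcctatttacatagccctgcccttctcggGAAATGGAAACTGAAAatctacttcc
Gbp2, chr3:142620594-142620623, plus strand: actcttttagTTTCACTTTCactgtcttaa
Gbp3, chr3:142559989-142560024, plus strand: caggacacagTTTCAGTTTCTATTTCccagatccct
Gbp7, chr3:142530220-142530302, plus strand: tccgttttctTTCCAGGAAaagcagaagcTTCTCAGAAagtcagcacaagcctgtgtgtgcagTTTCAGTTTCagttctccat
Igtp, chr11:58199501-58199541, plus strand: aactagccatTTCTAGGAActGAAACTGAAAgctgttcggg
Irgm1, chr11:48871425-48871460, minus strand: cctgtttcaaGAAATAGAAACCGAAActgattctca
Irgm2, chr11:58214892-58214932, plus strand: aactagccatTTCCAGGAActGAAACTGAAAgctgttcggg
Isg15, chr4:156200865-156200906, minus strand: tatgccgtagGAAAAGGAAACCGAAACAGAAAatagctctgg
Rsad2, chr12:26456553-26456582, minus strand: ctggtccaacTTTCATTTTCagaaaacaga

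Isg15 held 3 overlapping ISRE-type matches, from base -78 to base -57 relative to its start, and Gbp3, Irgm1 and Oas1a held 2 overlapping matches each. In Ifit1 and Ifit3 the 2 matches lay apart, at -104 and -85 and at -156 and -122. Igtp and Irgm2 had a GAS-type match just before the ISRE-type match, and their printed stretches of 41 bases differed at 1 base, which lies within the GAS-type match. Gbp7 held 2 GAS-type matches and 1 ISRE-type match. Among members in the table, the median log2 ratio in stellate-like cells was 0.83 for the 18 with an ISRE-type match and 0.63 for the 17 without, and it was 0.64 for the 12 with a GAS-type match and 0.85 for the 23 without. As the list was drawn up with earlier results known, these medians are descriptions only.

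**Figure D2:**
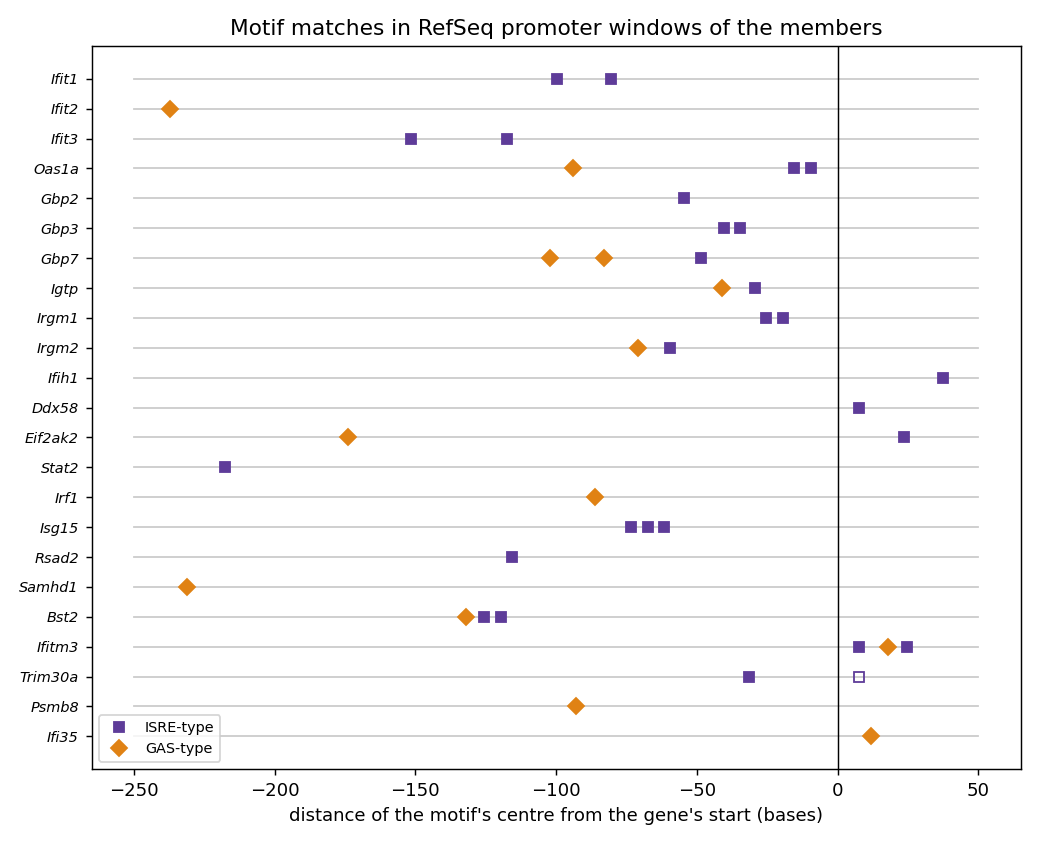
Positions of ISRE-type (squares) and GAS-type (diamonds) matches, as the distance of the motif's centre from the gene's start in bases, in the promoter windows of the 23 members with a match. The open square is a match in a second promoter of Trim30a; in the gamma-type genes all ISRE-type matches lie between bases -64 and -15.

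Among the type I genes in stellate-like cells, the Ifit family encodes proteins that bind viral RNA, and its genes lie next to each other on chromosome 19. Ifit3 (chr19:34583531-34588731, GRCm38) was at 196 CPM in p16-LRTD against 398 CPM in p16-Alb-LRTD (log2 ratio 1.02, 0.997 to 1.04). Ifit1 (chr19:34640871-34650009) was at 60.8 and 137 CPM (log2 ratio 1.18, 1.14 to 1.21), so that both were more than 2-fold higher in p16-Alb-LRTD. Ifit2 was at 43.4 and 49.4 CPM (log2 ratio 0.19, 0.14 to 0.24) and stayed below 1.5-fold, unlike its neighbours. The 2'-5'-oligoadenylate synthetases, which activate RNase L on double-stranded RNA, were also higher. Their relative Oasl2, an antiviral protein of the same family, was at 80.8 and 163 CPM, Oas2 at 14.6 and 35.2 CPM and Oas1a at 13.5 and 31.1 CPM, with log2 ratios of 1.01, 1.27 and 1.21. Mx1, an antiviral GTPase that is defective in many laboratory strains, C57BL/6 among them, was below 5 CPM, with 77 and 267 UMIs (log2 ratio 1.98, 1.61 to 2.37). Summed over the list, the type I genes were at 410.01 CPM (407 to 413) in p16-LRTD against 816 CPM (811 to 821) in p16-Alb-LRTD (log2 ratio 0.99, 0.98 to 1.01). Ifit3 gave 47.9% and 48.7% of these UMIs.

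The gamma-type genes were higher by a smaller ratio. The guanylate-binding proteins are GTPases that attack the vacuoles of intracellular pathogens. Gbp7 (chr3:142530342-142550149) was at 77.4 and 121 CPM (log2 ratio 0.65, 0.61 to 0.68) and Gbp3 at 39.6 and 77.7 CPM (log2 ratio 0.97, 0.93 to 1.02). Gbp2, the other member of this chromosome 3 cluster, was at 41.6 and 55.8 CPM (log2 ratio 0.42, 0.37 to 0.47) and stayed below 1.5-fold. The immunity-related GTPases control membranes around pathogens and autophagy. Irgm2 was at 41.6 and 76.0 CPM (log2 ratio 0.87, 0.82 to 0.92), Irgm1 and Igtp (also called Irgm3) had log2 ratios of 0.90 and 1.07, and Gbp6 was at 5.36 and 10.6 CPM. Summed, the gamma-type genes were at 257 CPM (255 to 259.97) in p16-LRTD against 443 CPM (439.7 to 447) in p16-Alb-LRTD (log2 ratio 0.78, 0.77 to 0.80). The other GTPases among the members lay in the same range: Iigp1 was at 277 and 504 CPM (log2 ratio 0.87, 0.85 to 0.88) and Ifi47 at 48.3 and 87.0 CPM (log2 ratio 0.85, 0.81 to 0.89).

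Among the stellate-like members past 5 CPM, the highest ratios were outside both lists. Rsad2 (chr12:26442746-26456452), which encodes viperin, an enzyme that makes a chain-terminating nucleotide, was at 17.0 CPM in p16-LRTD against 57.1 CPM in p16-Alb-LRTD (log2 ratio 1.75, 1.68 to 1.81). Cmpk2, its neighbour on chromosome 12 and a nucleotide kinase, was at 19.0 and 42.4 CPM (log2 ratio 1.16), whereas Samhd1, a dNTP hydrolase, was at 52.3 and 67.3 CPM (log2 ratio 0.37). Ifi44 was at 26.4 and 74.8 CPM (log2 ratio 1.504, 1.45 to 1.56). Among the transcription factors, Irf7 (chr7:141262706-141266481), which amplifies type I interferon production, was at 64.1 and 169 CPM (log2 ratio 1.40, 1.36 to 1.43). Irf1, a factor induced by interferon gamma, was at 90.8 and 140.00 CPM and Stat2 at 48.2 and 82.9 CPM, with log2 ratios of 0.63 and 0.78, and Irf9, the partner of STAT2 in ISRE binding, was at 0.48 on the same scale. These 3 factors lay well below Irf7 in their ratios.

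All 3 members of the ISG15 system were at least 1.5-fold higher in stellate-like cells. Isg15 (chr4:156199424-156200818), a ubiquitin-like protein attached to other proteins, was at 167 and 365 CPM (log2 ratio 1.13, 1.11 to 1.15). Herc6, its ligase in the mouse, was at 55.3 and 96.0 CPM, and Usp18, which removes ISG15 and dampens IFNAR signalling, at 23.6 and 49.0 CPM (log2 ratios 0.79 and 1.05). Of the sensors and kinases, Ifih1 (MDA5) and Ddx58 (RIG-I), receptors for double-stranded RNA in the cytosol, were at 111 and 162 CPM and at 71.3 and 101 CPM, and both stayed below 1.5-fold (log2 ratios 0.55 and 0.50). The RNA-dependent kinase Eif2ak2 (PKR) and the nucleic acid sensor Zbp1 had log2 ratios of 0.77 and 0.98. Of the PARP and ubiquitin enzymes, Rnf213 was at 173 and 328 CPM and Trim30a at 97.6 and 147 CPM. Parp9 and Parp14 were also past 1.5-fold, and Dtx3l, the ubiquitin ligase that pairs with PARP9, was at a log2 ratio of 0.50.

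Genes of the antigen processing group, which interferon gamma induces in many cells, differed little in stellate-like cells. The immunoproteasome subunit Psmb8 was at 120.2 and 131 CPM (log2 ratio 0.12, 0.09 to 0.15) and its partner Psmb9 at 78.5 and 71.1 CPM (log2 ratio -0.14, -0.18 to -0.10), while the peptide transporter Tap1 had a log2 ratio of 0.32. These 3 genes lie side by side on chromosome 17. Membrane proteins were higher by less than most members. Ifitm3, which blocks the fusion of viruses with endosomes, was at 2075 and 2739 CPM, Bst2 (tetherin) at 280.00 and 459 CPM and Rtp4 at 0.24 on the log2 scale, and only Bst2 of these was past 1.5-fold (log2 ratio 0.71). Xaf1, which antagonises an inhibitor of apoptosis, was at 65.7 and 116 CPM and past 1.5-fold, and Ifi35 stayed below it (log2 ratios 0.82 and 0.56). Ifi27 (chr12:103434211-103440239) was the only member at least 1.5-fold lower in p16-Alb-LRTD, at 98.3 CPM in p16-LRTD against 55.1 CPM in p16-Alb-LRTD (log2 ratio -0.84, -0.88 to -0.79).

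Both lists were higher in p16-Alb-LRTD in each class, the type I list by more. In stellate-like cells the log2 ratio of the type I list exceeded that of the gamma-type list by 0.21 (0.18 to 0.23), in endothelial-like cells by 0.26 (0.11 to 0.42) and in Kupffer-like cells by 0.44 (0.31 to 0.57). The scaling of the libraries cancels in this difference. Without the cells that held markers of another class, the endothelial-like difference was 0.13 (-0.12 to 0.39) and its interval included 0. Single genes overlapped between the lists: among genes past 5 CPM in stellate-like cells, type I genes ranged from 0.19 (Ifit2) to 1.27 (Oas2), and the gamma-type genes from 0.42 (Gbp2) to 1.07 (Igtp). Further members of these families were also summed. Of 7 further type I relatives with a row, 3 passed 5 CPM (Ifit3b, Oas1g and Oasl1) and all 3 were past 1.5-fold, beside 3.03% of all genes (Oas1g, at 4.35 and 9.29 CPM, passed only through p16-Alb-LRTD), with a summed log2 ratio for the 7 of 1.04. Of 8 further gamma-type relatives 6 passed and 5 were past 1.5-fold (Gbp4, Gbp5, Gbp9, Tgtp2 and Gm4951), with a summed log2 ratio of 0.79. In the other classes the type I relatives exceeded the gamma-type ones by a wider margin, with log2 ratios of 1.43 (1.17 to 1.69) and 0.68 (0.60 to 0.76) in endothelial-like and 1.58 (1.47 to 1.69) and 0.93 (0.84 to 1.02) in Kupffer-like cells. Reads of near-identical copies can be split between them, so pairs were also summed. Ifit3 with Ifit3b was at 1.03 (1.01 to 1.05), Oas1a with Oas1g at 1.18 (1.11 to 1.25) and Iigp1 with Gm4951 at 0.86 (0.85 to 0.88), beside 1.02, 1.21 and 0.87 for the member alone.

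In endothelial-like cells the members started from other levels. Summed, the type I genes were at 199 CPM (188 to 210.3) in p16-LRTD against 437 CPM (416 to 458) in p16-Alb-LRTD (log2 ratio 1.13, 1.03 to 1.24), and the gamma-type genes at 207 CPM (195 to 218) in p16-LRTD against 378 CPM (359 to 397) in p16-Alb-LRTD (log2 ratio 0.87, 0.76 to 0.98). Among members past 5 CPM, the 5 highest ratios were those of Rsad2 (53.8 and 183 CPM, log2 ratio 1.76), Gbp3 (1.42), Irf7 (1.40), Ifit2 (1.28) and Ifit1 (1.27). Ifit2, at 59.5 and 144 CPM, gave 29.9% and 33.0% of the type I UMIs and was past 2-fold, unlike in stellate-like cells. Its log2 ratio exceeded the stellate-like one by 1.09 (0.89 to 1.29), a difference between classes with counting error only. Isg15 and Ifi44 had lower ratios here than in stellate-like cells, with differences of -0.52 (-0.76 to -0.28) and -0.75 (-0.92 to -0.58). Bst2, the only member with an interval below 0 beside Ifi27, was at 699.7 CPM in p16-LRTD against 631 CPM in p16-Alb-LRTD (log2 ratio -0.15, -0.22 to -0.08). Irf9, Psmb8 and Tap1 had intervals that included 0.

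The ratios of both list sums and the median ratio of the members were highest in Kupffer-like cells. Summed, the type I genes were at 265 CPM (252 to 278) in p16-LRTD against 775 CPM (749 to 801) in p16-Alb-LRTD (log2 ratio 1.55, 1.46 to 1.64) and the gamma-type genes at 226 CPM (214 to 239) in p16-LRTD against 487 CPM (467 to 508) in p16-Alb-LRTD (log2 ratio 1.11, 1.01 to 1.205). Among members past 5 CPM, the 5 highest ratios were those of Ifit1 (10.4 and 47.2 CPM, log2 ratio 2.18), Isg15 (30.3 and 111 CPM, 1.88), Ifit2 (66.9 and 231 CPM, 1.79), Oasl2 (1.74) and Cmpk2 (1.71). At least 2-fold higher were 24 of 44 members, beside 1.7% of all genes of the class, against 12 of 44 in stellate-like cells (0.923% of genes) and 9 of 42 in endothelial-like cells (2% of genes). Mx1 passed 5 CPM here only, at 11.1 and 33.3 CPM (log2 ratio 1.59, 1.16 to 2.03). Among the gamma-type genes, Gbp2 was at 53.7 and 153 CPM, a log2 ratio above the stellate-like one by 1.08 (0.89 to 1.28), and Irgm2 was at 30.1 and 40.0 CPM, with a difference from the stellate-like ratio of -0.46 (-0.76 to -0.16). Irf7, Rsad2, Oas1a and Oas2 also had lower ratios than in stellate-like cells, with differences of -0.29 (-0.41 to -0.17), -0.23 (-0.40 to -0.06), -0.39 (-0.70 to -0.08) and -0.38 (-0.62 to -0.14). Ifi27 was lower in p16-Alb-LRTD, at 84.9 and 37.8 CPM (log2 ratio -1.17, -1.43 to -0.91).

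Between classes, the log2 ratio of the type I list was higher in Kupffer-like than in stellate-like cells by 0.56 (0.47 to 0.64), and that of the gamma-type list by 0.32 (0.22 to 0.42). Endothelial-like and stellate-like cells differed by 0.14 (0.03 to 0.25) for type I and by 0.08 (-0.02 to 0.19) for gamma-type, where the interval included 0. Without cells that held markers of another class these differences were -0.08 (-0.26 to 0.10) and -0.01 (-0.19 to 0.18), so that neither direction between these classes held. The Kupffer-like differences from stellate-like cells were then 0.54 (0.41 to 0.67) and 0.20 (0.06 to 0.34). They rest on 107 and 74 Kupffer-like cells in place of 283 and 178. Cells that met more than 1 class rule, 245 and 221, had log2 ratios of 0.98 and 0.88. Cells that met none, 194 and 113, had the lowest type I level of all, 138 and 142 CPM (log2 ratio 0.05, -0.14 to 0.23), and a gamma-type level of 219.8 and 192 CPM (log2 ratio -0.19, -0.35 to -0.04). The other gene lists differed in direction there: with Iigp1, Ifi47 and Irf1 added, the gamma-type log2 ratio was 0.17 (0.05 to 0.28), and the further relatives of the type I and gamma-type families were at 0.44 (0.03 to 0.84) and 0.52 (0.29 to 0.74).

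**Figure D3:**
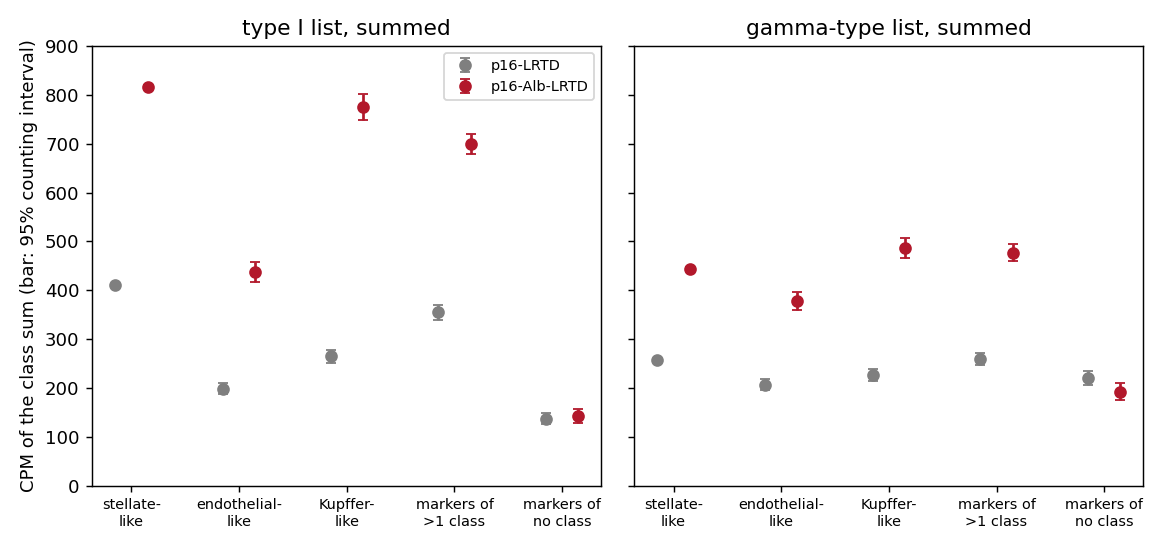
Summed level of the type I list (left) and the gamma-type list (right) in CPM, for p16-LRTD (grey) and p16-Alb-LRTD (red), by class of cells; bars are 95% counting intervals. In the 3 named classes and in cells with markers of more than 1 class the red points lie above the grey ones, and in cells with markers of no class the type I intervals overlap and the red gamma-type point lies lower.

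RNA released by other cells can add UMIs in droplets, and stellate-like cells made up 87.2% and 89.3% of the cells. Dcn in endothelial-like cells stood at 1.73% and 1.16% of its stellate-like level, and in Kupffer-like cells at 1.31% and 1.001%. Ifit3 in endothelial-like cells stood at 20.7% and 21.5% of its stellate-like level, Isg15 at 27.2% and 19.0%, and Rsad2 at 317% and 319.9%. In Kupffer-like cells Rsad2 stood at 469% and 400.5%. Rsad2 and Ifit2 were more abundant in both of the rarer classes than in stellate-like cells in both libraries. The part of released RNA in these values was not tested.

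The share of responding cells was measured as the share with at least 2 UMIs of a list after each cell was thinned to 5000 UMIs. In stellate-like cells 46.7% (45.6 to 47.9%) responded by the type I list in p16-LRTD and 70.7% (69.6 to 71.8%) in p16-Alb-LRTD. In endothelial-like cells these shares were 20.3% (16.6 to 24.5%) against 49.5% (43.5 to 55.5%). They were 35.6% (30.0 to 41.6%) against 71.8% (64.5 to 78.3%) in Kupffer-like cells. By the gamma-type list, 34.3% and 55.0% of stellate-like, 25.8% and 43.8% of endothelial-like and 25.9% and 50.3% of Kupffer-like cells responded. The size of these differences depended on the depth of thinning and on the UMI limit. In stellate-like cells the type I difference was 24.0 percentage points, 12.8 with a limit of 1 UMI and 8.85 without thinning, and the gamma-type difference 20.7 points, 10.7 without thinning. At 3000 UMIs the type I difference in endothelial-like cells went from 29.1 to 17.2 percentage points and the gamma-type difference in Kupffer-like cells from 24.4 to 14.8. No class in these libraries lacks interferon receptors, so none could serve as the background of this share. Without thinning, type I shares were 85.7% and 94.6% in stellate-like cells, whose median depths were 17024.5 and 18136 UMIs. Thinning left out 16 and 7 stellate-like, 12 and 0 endothelial-like and 5 and 1 Kupffer-like cells.

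The whole distribution of stellate-like cells lay higher in p16-Alb-LRTD. The median type I count per thinned cell was 1 UMI in p16-LRTD and 3 UMIs in p16-Alb-LRTD, and the mean was 2.10 and 4.05. Cells without a type I UMI made up 25.7% and 12.9%, and cells with 10 or more made up 1.66% and 8.66%. Within responding cells the mean was 3.90 and 5.49 UMIs, so that both the share and the count per responding cell were higher. The 10% of cells with the most type I UMIs held 37.7% and 32.8% of them. For single genes, thinned shares of stellate-like cells with a UMI were 49.8% and 65.5% for Ifit3, 41.5% and 63.8% for Isg15, 25.1% and 52.8% for Irf7 and 6.33% and 17.3% for Rsad2. In endothelial-like cells the share for Rsad2 was 17.0% and 45.9%, and in Kupffer-like cells 24.8% and 48.6%.

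**Figure D4:**
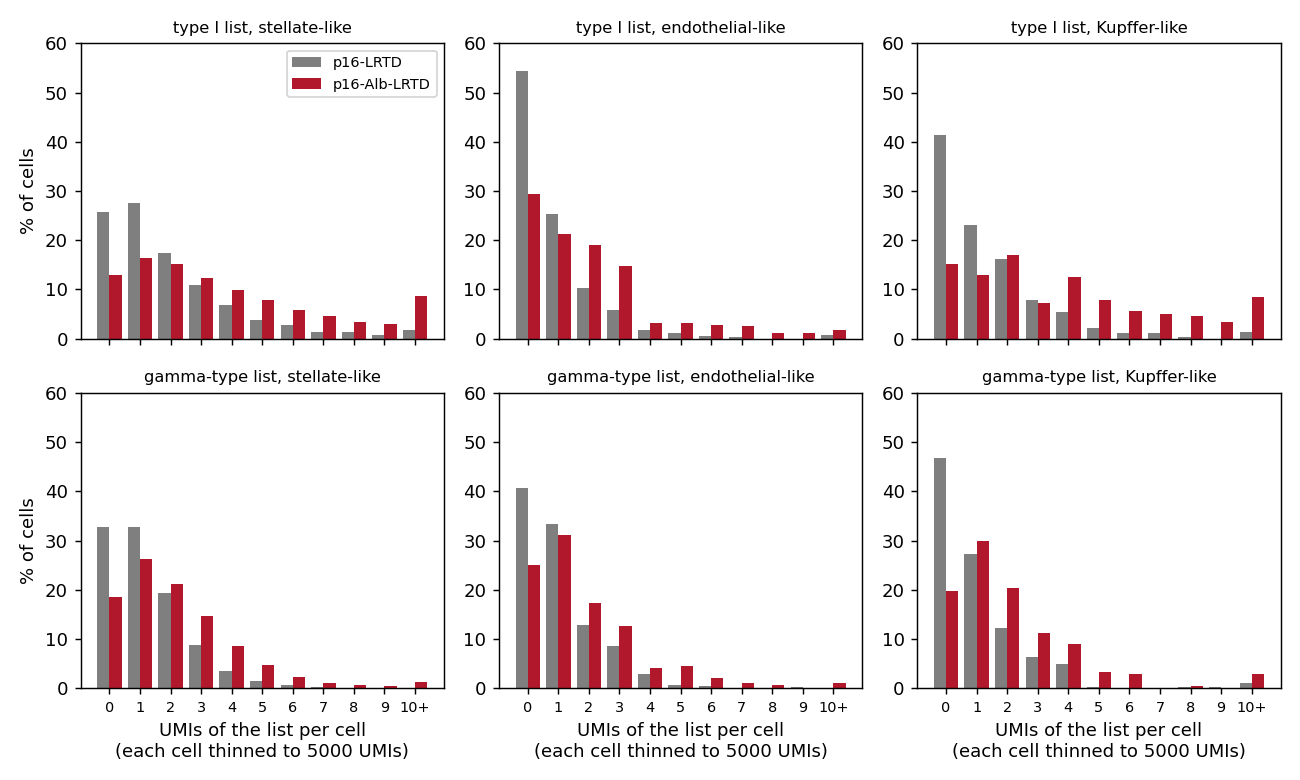
Percentage of cells (vertical axis) by the number of UMIs of the type I list (top) or the gamma-type list (bottom) in each cell thinned to 5000 UMIs, for p16-LRTD (grey) and p16-Alb-LRTD (red), in the 3 classes. In every panel fewer red than grey cells have 0 UMIs, and more have 3 or more, as in the 29.4% and 55.6% of stellate-like cells with at least 3 type I UMIs.

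Cells that responded by the gamma-type list responded by the type I list more often than other cells did. In stellate-like cells the type I share was 57.6% among gamma-type responders and 41.1% among the rest in p16-LRTD, and 79.4% and 60.1% in p16-Alb-LRTD. Both single shares were higher in p16-Alb-LRTD, which by itself makes cells with both more common. Stellate-like cells that responded by both lists made up 19.8% in p16-LRTD and 43.7% in p16-Alb-LRTD, and cells that responded by neither made up 38.7% and 17.9%. Cells that responded by the type I list alone had like shares, at 27.0% and 27.1%, and by the gamma-type list alone made up 14.5% and 11.3%. In Kupffer-like cells the shares for both lists were 13.3% and 41.8%, and in endothelial-like cells 7.66% and 29.3%. Within each library, stellate-like cells with an Ifit1 UMI held 2.18 and 2.09 times the mean of the other type I genes found in cells without one, and 1.56 and 1.57 times the mean of gamma-type genes. Cells with a Gbp7 UMI held 1.40 and 1.56 times the mean of type I genes and 1.27 and 1.49 times that of the other gamma-type genes. These are descriptions over cells of 1 library, which share its preparation and released RNA.

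Stellate-like cells were then divided by Col1a1, the collagen gene that marks activation to myofibroblasts, into cells with 0, 1 to 2 and 3 or more Col1a1 UMIs after thinning. The third group held 3571 cells in p16-LRTD against 1844 in p16-Alb-LRTD, so the mix of groups differed between libraries. Type I genes were at 469.96 and 890.1 CPM in cells without Col1a1, at 463 and 824 CPM in the middle group and at 357 and 703 CPM in cells with the most. Within these groups the log2 ratios were 0.92 (0.90 to 0.95), 0.83 (0.80 to 0.86) and 0.98 (0.95 to 1.002). For the gamma-type list they were 0.73 (0.70 to 0.76), 0.72 (0.68 to 0.76) and 0.83 (0.80 to 0.87). The type I level was lowest in the cells with the most Col1a1 in both libraries, and the ratio was present in all 3 groups.

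**Figure D5:**
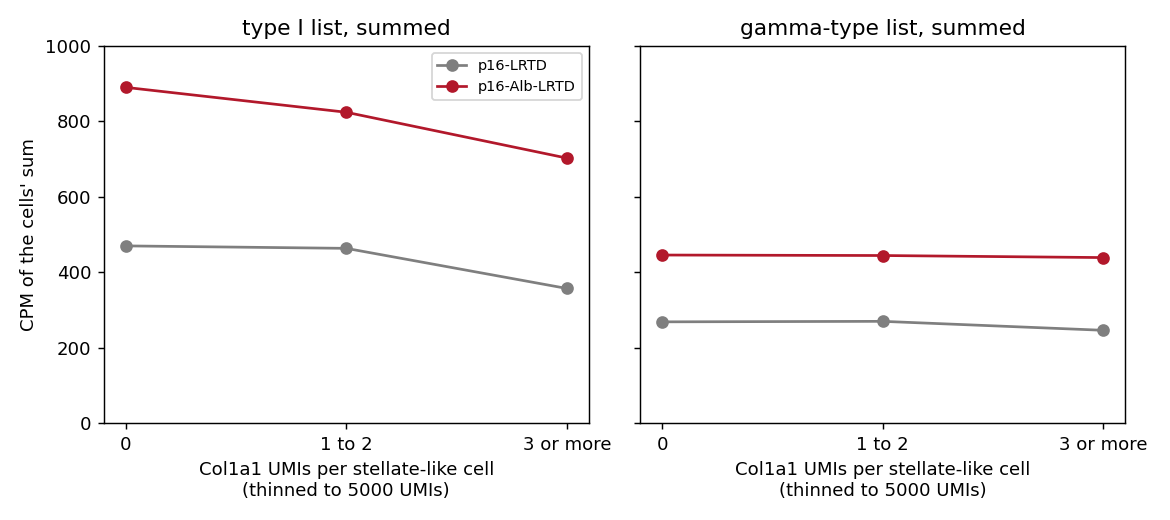
Summed level in CPM of the type I list (left) and the gamma-type list (right) in stellate-like cells with 0, 1 to 2 and 3 or more Col1a1 UMIs after thinning, for p16-LRTD (grey) and p16-Alb-LRTD (red). The red line lies above the grey line in every group, and the type I level is lowest in cells with 3 or more.

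Other genes of the pathway differed less than the ISGs. Of 48 pathway genes with a row, 30 passed 5 CPM in stellate-like cells, with 6 at least 1.5-fold higher and 0 lower, beside 3.03% and 3.05% of all genes, and a median log2 ratio of 0.20. The interferon genes themselves were hardly detected: none of 10 reached 5 CPM in any class, and in stellate-like cells the highest count was 6 UMIs, of Ifnk in p16-Alb-LRTD. Ifng had 0 and 5 UMIs there, and Ifnb1 had 2 UMIs in the Kupffer-like cells of p16-Alb-LRTD and 0 elsewhere. The 0 UMIs of Ifng in the stellate-like cells of p16-LRTD allow a level of up to 0.0259 CPM. The 5 receptor genes that passed 5 CPM did not reach 1.5-fold in any class. Ifnar1 was at 33.1 and 32.7 CPM, Ifnar2 at 375 and 346 CPM, Ifngr1 at 63.4 and 66.9 CPM and Ifngr2 at 50.4 and 51.7 CPM in stellate-like cells, with log2 ratios from -0.12 to 0.08.

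The kinases Jak1, Jak2 and Tyk2 had log2 ratios of 0.19, -0.21 and -0.06 in stellate-like cells. The feedback inhibitors Socs1 and Socs3 were past 1.5-fold in all 3 classes. Socs3, which is induced mainly by cytokines of the IL-6 family, was at 314 and 501 CPM in stellate-like cells (log2 ratio 0.67, 0.66 to 0.69), and Socs1 at 11.5 and 17.7 CPM (log2 ratio 0.62, 0.52 to 0.71). Of the sensing genes, Trim25, a ligase that activates RIG-I, and Adar, an RNA-editing enzyme with an interferon-induced form, were past 1.5-fold in stellate-like cells (log2 ratios 0.70 and 0.67), as was Irf2 (0.71). The adaptors Mavs, Ticam1 and Tmem173 (STING) and the factor Irf3 lay between -0.16 and 0.07.

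Other measures moved with the genotype and are given beside these results. All 6 genes of the dissociation and stress list (Fos, Jun, Egr1, Atf3, Hspa1a and Hspa1b) were higher in p16-Alb-LRTD in every class, and their sum was at 3606 and 5633 CPM in stellate-like, 1407 and 2749.8 CPM in endothelial-like and 1608 and 2154 CPM in Kupffer-like cells. Within cells at or below the pooled median of that list, the type I log2 ratio was 0.97 in stellate-like, 1.05 in endothelial-like and 1.83 in Kupffer-like cells, and the gamma-type ratio 0.82, 0.77 and 0.97. This choice was made after the data were seen. Markers of other immune cells differed as well. In stellate-like cells the T or NK cell markers had 41 and 90 UMIs in sum, but only 2 of the 4 were higher in p16-Alb-LRTD. Cd3e had 2 and 22 and Nkg7 12 and 53 UMIs, against 26 and 15 for Trac and 1 and 0 for Klrb1c. The plasmacytoid dendritic cell markers had 53 and 93 UMIs, and without cells that held an immune marker the type I ratio was 0.995. In the endothelial-like class the sum of the B cell markers was 49 and 0 UMIs, and the sums were 0 and 56 UMIs for plasmacytoid dendritic cells and 1 and 30 for monocytes. Of the monocyte markers, Ly6c2 gave 0 and 29 UMIs and Ccr2 1 and 1. Markers of the other liver classes differed there too. The sum of the 5 Kupffer markers was 47.8 and 32.1 CPM, of which Marco gave 23.4 and 3.01 CPM, while 3 of the 5 were higher in p16-Alb-LRTD. The sum of the stellate markers was 398 and 307 CPM, and that of the portal fibroblast markers 7.31 and 0.50 CPM. Without the cells that held an immune marker, which left 419 and 279 cells, the endothelial-like ratios were 1.12 for type I and 0.86 for gamma-type genes. In Kupffer-like cells Marco, a scavenger receptor, was at 508 and 1461 CPM, and the sum of 4 endothelial markers at 427 and 658 CPM, most of it Cdh5. In stellate-like cells the sum of the portal fibroblast markers was 60.6 and 29.9 CPM, nearly all of it Dpt, and that of the endothelial markers 32.5 and 18.2 CPM. The sum of 4 hepatocyte markers was 20.7 and 14.8 CPM in stellate-like and 27.2 and 19.9 CPM in Kupffer-like cells. In endothelial-like cells it was 71.2 and 74.3 CPM. In stellate-like cells Alb was at 13.0 and 7.46 CPM and Cyp2e1 at 1.37 and 3.07 CPM. The part of Marco, Dpt and the hepatocyte markers in the results was not tested. Without cells that held over 2 marker counts per 10000 UMIs of another class, the type I ratio was 0.99 in stellate-like and 1.53 in Kupffer-like cells, and 0.91 in endothelial-like cells, over 201 and 77 cells. With 1 library per genotype, the genotype and the preparation of each library cannot be told apart.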

How the data were processed

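Single-cell RNA was measured in 2 libraries of HSC preparations, 1 per genotype, made by enzymatic digestion and a density gradient. The deposited values are whole UMI counts for each gene in each barcode, not normalized, which the authors made with Cell Ranger 7.0.1 and the mm10 genome per the submitters' processing notes. The annotation release was not given in the sources used here. Cell Ranger of this version counts intronic reads by default, and whether that was changed was not given. Reads of near-identical copies (Ifit3 and Ifit3b, Oas1a and Oas1g, Gbp6 and Gbp10, Iigp1 and Gm4951) may be split or dropped, so single values of these genes are uncertain.

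Everything from there on was computed here. Cells were kept at 2000 to 7000 genes, at most 50000 UMIs and at most 5% mitochondrial UMIs, limits taken from the methods of the study. No doublet caller was run; cells that met more than 1 class rule were kept apart. Cells were stellate-like at 15 or more marker UMIs per 10000 (Lrat, Ecm1, Hgf, Reln), endothelial-like at 8 (Kdr, Stab2, Ptprb) and Kupffer-like at 8 (Clec4f, Cd5l, Vsig4, Csf1r). Counts were summed per class and library and given as CPM, counts per 1000000 UMIs of that sum. Cells are not replicates, so no p-value was computed. Intervals are exact Poisson for levels, exact conditional for ratios and Clopper-Pearson for shares, at 95%. Differences of log2 ratios have normal intervals from the counts. A gene was called higher or lower at 1.5-fold if its average over both libraries was at least 5 CPM. For shares of cells, 5000 UMIs were drawn from each cell without replacement (seed 1).

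The type I list held Ifit1, Ifit2, Ifit3, Oas1a, Oas2, Oasl2 and Mx1 (Mx2, chosen as well, had no row), and the gamma-type list Gbp2, Gbp3, Gbp6, Gbp7, Igtp, Irgm1 and Irgm2. The members and lists were chosen with earlier results of these data known. In each role group the 2 members with the highest mean stellate-like level and every member past 1.5-fold are named, and in the other classes the 5 largest ratios in each direction. Coordinates are from GENCODE vM21 (GRCm38), in which 45 members were matched by identifier. Of the pathway list, Cgas and Sting1 had no row under these symbols, and their older symbols Mb21d1 and Tmem173 were used, and 1 other gene of this list is counted but not reported here. Ratios and thinning were tested on simulated data. Tools were Python 3.11.15, NumPy 2.4.6, SciPy 1.17.1 and edgeR 4.0.16 (R 4.3.3), the last for TMM scaling only. Alternatives covered scaling, filters, marker minimums, thinning depth, the responding limit and single list members.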

Additional observations from a re-analysis of the deposited data

Results flagged for a closer look

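The following were set apart because the ratio had opposite directions in different classes, with intervals on opposite sides of 0. These differences rest on counting error in 1 library per genotype and were not tested. Bst2, the gene of the virus-tethering protein tetherin, had a log2 ratio of 0.71 in stellate-like and 0.70 in Kupffer-like cells against -0.15 in endothelial-like cells, where its level was highest (699.7 and 631 CPM, beside 280.00 and 459 CPM in stellate-like cells). Psmb9, an immunoproteasome subunit, had 0.38 in endothelial-like and 0.37 in Kupffer-like cells against -0.14 in stellate-like cells.

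Cells that met more than 1 class rule were used in no comparison by class, and the lists were higher in p16-Alb-LRTD there as well. The type I list had a log2 ratio of 0.98, or 1.97-fold, and the gamma-type list 0.88, or 1.84-fold.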

How the results depend on the processing

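Over 29 results and 183 alternative values, 2 changed direction, 147 stayed within the counting interval of the main value (counts of members: within 1.5 times) and 34 moved beyond it. No paired analysis was possible because only 1 library was made per genotype. TMM scaling moved the stellate-like log2 ratios to 1.04 (type I), 0.83 (gamma-type) and 0.83 (median of the members). With the list member with the most UMIs left out they were 0.97 and 0.84 in stellate-like and 1.46 and 0.95 in Kupffer-like cells. The mean of per-cell CPM gave 0.95 for type I in stellate-like and 1.44 in Kupffer-like cells, and 0.18 for type I minus gamma-type in stellate-like cells. Without upper limits on genes and UMIs, type I was 1.02 in stellate-like and 1.30 in endothelial-like cells, and over cells with 10000 to 30000 UMIs it was 0.98 in stellate-like cells. Without cells that held markers of another class, type I was 0.91 in endothelial-like and gamma-type 0.99 in Kupffer-like cells, and 20 endothelial-like members were 1.5-fold higher and 2 lower, against 29 and 0. With no minimum beyond 1 UMI, 1 was lower. Both changes of direction came without cells that held markers of another class, in the differences between endothelial-like and stellate-like ratios, which became -0.083 for type I and -0.0079 for gamma-type, and the gamma-type difference between Kupffer-like and stellate-like ratios became 0.20 (these comparisons between classes were added after seeing the data). In cells low in the stress list, an alternative chosen after seeing the data, type I was 0.97 and 1.83 and gamma-type 0.82 and 0.97 in stellate-like and Kupffer-like cells. The difference in responding cells, in percentage points, depended on depth and limit. At 3000 UMIs it was 17.2 for type I in endothelial-like cells, and 15.6 and 14.8 for gamma-type in stellate-like and Kupffer-like cells. Without thinning it was 8.85 and 22.2 for type I in these classes and 10.7 for gamma-type in stellate-like cells. With at least 1 UMI it was 12.8 and 26.1 for type I and 14.2 for gamma-type in stellate-like cells, and with at least 3 it was 26.2 for type I in stellate-like and 20.3 in endothelial-like cells and 18.8 for gamma-type in stellate-like cells. The cause of these shifts was not tested. The endothelial-like and Kupffer-like classes held at most 430 cells per library, which limits single genes there.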

Other observations

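Further OAS family genes were more abundant in Kupffer-like than in stellate-like cells. Oasl1, an OAS-like protein that limits the translation of Irf7, was at 102 CPM in p16-LRTD against 342 CPM in p16-Alb-LRTD (log2 ratio 1.74, 1.61 to 1.88), beside 5.02 and 10.5 CPM in stellate-like cells. Oas3 was at 39.2 and 96.6 CPM (log2 ratio 1.30, 1.07 to 1.54) and had 15 and 46 UMIs in all stellate-like cells. Of 35 pathway genes that passed 5 CPM in Kupffer-like cells, 10 were at least 1.5-fold higher and 0 lower, beside 5.21% and 6.83% of all genes of the class, with a median log2 ratio of 0.35. They included Tlr7, the endosomal receptor for single-stranded RNA (88.5 and 138 CPM), and Ciita and Nlrc5, the activators of MHC class II and class I genes (25.7 and 42.9 CPM and 24.1 and 45.8 CPM). Batf2 was at 11.6 and 30.0 CPM (log2 ratio 1.37, 0.94 to 1.81).

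In endothelial-like cells 4 of 30 pathway genes were at least 1.5-fold higher (Socs1, Socs3, Myd88 and Nlrc5) and 2 at least 1.5-fold lower. The lower ones were Tmem173 (STING), the adaptor of cytosolic DNA sensing, at 47.0 and 28.6 CPM (log2 ratio -0.71, -1.04 to -0.40), and Irf3, the factor activated downstream of it, at 40.6 and 25.9 CPM (log2 ratio -0.65, -0.997 to -0.31). Among all genes of this class, 6.44% were higher and 13.5% lower by that fold. Irf8 was at 220.2 and 149.9 CPM (log2 ratio -0.55, -0.70 to -0.41) in endothelial-like and at 48.4 and 71.2 CPM (log2 ratio 0.56, 0.51 to 0.60) in stellate-like cells. Of the cells known to express Irf8, B cell markers had 49 and 0 UMIs in the endothelial-like class and plasmacytoid dendritic cell markers 0 and 56. Monocyte markers had 1 and 30 UMIs there, with Ly6c2 at 0 and 29 and Ccr2 at 1 and 1. The part of these cells in the Irf8 value was not tested.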
